A study of Mus musculus with 18 samples.

Results

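The Hox genes encode homeodomain transcription factors that lie in 4 clusters in the mouse genome, and this account follows all 39 of them, taken as the rows of the expression table whose symbol is Hox, a cluster letter from a to d and a number, out of 46983 rows. There were 11 in HoxA on chromosome 6, 10 in HoxB on chromosome 11, 9 in HoxC on chromosome 15 and 9 in HoxD on chromosome 2. They were measured by RNA sequencing in lipochondrocytes, the lipid-filled cells of the ear cartilage plate, at postnatal days 8, 10, 13, 21 and 33 (P8 to P33), and in adipocytes of inguinal fat, the subcutaneous depot of the groin, at P33. Each of the 6 groups had 3 libraries, 18 in all. The labels give the genotype Wnt1-Cre2;TdTomato and the strain C57BL/6 for every group, the adipocytes included. In such mice Cre is driven by Wnt1 regulatory sequences, which are active in the dorsal neural tube and the neural crest, and TdTomato marks cells that descend from Cre-expressing ones. Ear cells of P8, P10 and P13 were released with collagenase and sorted through a gate for bright TdTomato. Those of P21 and P33, like the adipocytes, were instead the floating fraction left by centrifugation. P33 lipochondrocytes thus share age and isolation with the adipocytes, and P21 lipochondrocytes share neither with P13 ones. The labels do not say whether the 3 libraries of a group came from separate animals, and p-values therefore measure the spread between these libraries, which may be technical.

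Along each cluster the genes stand in the order in which they are used from head to tail. Genes at the 3′ end, the low paralog groups, are active from the hindbrain and pharyngeal arches backwards, and genes towards the 5′ end, the high paralog groups, mark trunk, limb and tail. Many adult mesenchymal cells keep the Hox pattern of the place where they arose. Neural crest of the first pharyngeal arch lacks Hox expression, whereas crest of the second arch, which contributes to the external ear, carries Hoxa2, and mice without Hoxa2 have second-arch skeletal elements replaced by copies of first-arch ones and lack a normal auricle.

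The Hoxa2 and Hoxa10 promoters are shown because Hoxa2 led the Hox transcripts of ear cartilage and Hoxa10 had the highest mean level in fat. Both genes lie on the minus strand of chromosome 6 in the same cluster, Hoxa2 at chr6:52162417-52164831 and Hoxa10 at chr6:52231197-52240854 (GRCm38, the assembly behind mm10). The 250 bases before each annotated start, 5′ to 3′ on the minus strand, are from RefSeq (GRCm38.p6), at chr6:52164832-52165081 for Hoxa2 and chr6:52240855-52241104 for Hoxa10. Capitals mark matches to the letters TGATNNAT, a Pbx-Hox motif, and TGACAG, a Meis motif, searched on both strands.
Hoxa2: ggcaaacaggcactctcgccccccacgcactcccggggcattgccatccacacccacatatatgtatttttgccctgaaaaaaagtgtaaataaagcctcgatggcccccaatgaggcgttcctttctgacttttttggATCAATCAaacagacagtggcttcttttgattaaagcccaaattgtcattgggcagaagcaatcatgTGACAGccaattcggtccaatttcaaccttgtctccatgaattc
Hoxa10: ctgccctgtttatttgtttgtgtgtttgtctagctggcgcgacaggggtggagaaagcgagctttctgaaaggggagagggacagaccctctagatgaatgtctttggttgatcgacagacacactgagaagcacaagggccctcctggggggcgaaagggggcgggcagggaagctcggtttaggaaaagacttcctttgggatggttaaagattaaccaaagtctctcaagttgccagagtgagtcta
The Hoxa2 stretch held 1 Pbx-Hox match, read on the other strand and beginning at position -111 from the start, and 1 Meis match at position -44. The Hoxa10 stretch held neither, and neither stretch held TATAAA. Another listed Hoxa10 promoter, not shown, held 1 TATAAA match and neither other motif, with 20 CpG and 59.2% G and C. TGATNNAT was in 7.68%, TGACAG in 15.9% and TATAAA in 12.4% of 32851 promoters of the same length, and in 4, 2 and 4 of the 24 Hox promoters in the table, which cover 22 of the 39 genes. A match describes the letters alone. The Hoxa2 stretch had 6 CpG and 46.4% G and C, and the Hoxa10 stretch 7 CpG and 51.6%, beside medians of 12.5 CpG and 58.6% over the 24 Hox promoters.

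Levels are the FPKM that the authors calculated, in which the fragments of a gene are divided by its length and by the mapped total, so that genes of different length can be compared. The libraries held 12461965 to 27640142 reads with alignment rates of 73.19% to 84.44%. A cartilage marker sum over 10 genes was 24048 to 54500 FPKM in the 15 lipochondrocyte libraries and 4.72 to 6.96 FPKM in the 3 adipocyte libraries, and a sum over 10 adipocyte markers was 8.59 to 39.4 FPKM in lipochondrocytes and 90330 to 96095 FPKM in adipocytes. The labelled cell types therefore carried their defining transcripts. Endothelial markers, summed over 8 genes, were at 1.98 to 8.43 FPKM in lipochondrocytes and at 724 to 770 FPKM in adipocytes. Macrophage markers summed to 2.28 to 55.5 FPKM in lipochondrocytes and 712 to 773 FPKM in adipocytes, and lymphocyte markers to 0.38 to 1.84 FPKM in lipochondrocytes and 149 to 163 FPKM in adipocytes. Markers of fibroblasts and perichondrium, summed over 12 genes, were at 2468 to 16267 FPKM in lipochondrocytes and at 604 to 612 FPKM in adipocytes. Most of them were higher in P33 lipochondrocytes, such as Col1a1, at a mean of 2853 FPKM against 41.1 FPKM in adipocytes. Dpt ran the other way, at 10.5 FPKM against 54.1 FPKM, and Pdgfra was close, at 2.44 FPKM against 2.38 FPKM. The part of these other cells in the Hox levels of either tissue was not tested. In bulk RNA, fewer cells of a type and less RNA per cell cannot be told apart.

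Ear cartilage carried little Hox RNA, most of it from the 3′ end of HoxA, and fat carried much more, nearly all of it from paralog groups 4 to 10. The summed level of the 39 genes was 4.78 ± 0.92 FPKM in P33 lipochondrocytes and 74.9 ± 2.95 FPKM in adipocytes (SD, n = 3 each), and no lipochondrocyte library of any stage, with sums of 1.96 to 6.8 FPKM, reached the lowest adipocyte library at 71.58 FPKM. In lipochondrocytes 79.2% to 95.1% of the sum came from HoxA, against 40.9% to 44.9% in adipocytes. HoxC gave at most 2.42% of the sum in a lipochondrocyte library and 40.3% to 43.5% in adipocytes. HoxB and HoxD were the lesser clusters in fat, with 6.96% to 9.78% and 6.26% to 7.78%. Paralog groups 1 to 3 made up 89.5% to 100% of the sum in lipochondrocytes and 2.20% to 3.45% in adipocytes. Groups 4 to 8 made up 54.5% to 56.5% in adipocytes and groups 9 to 13 made up 40.1% to 42.7%.

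**Figure D1:**
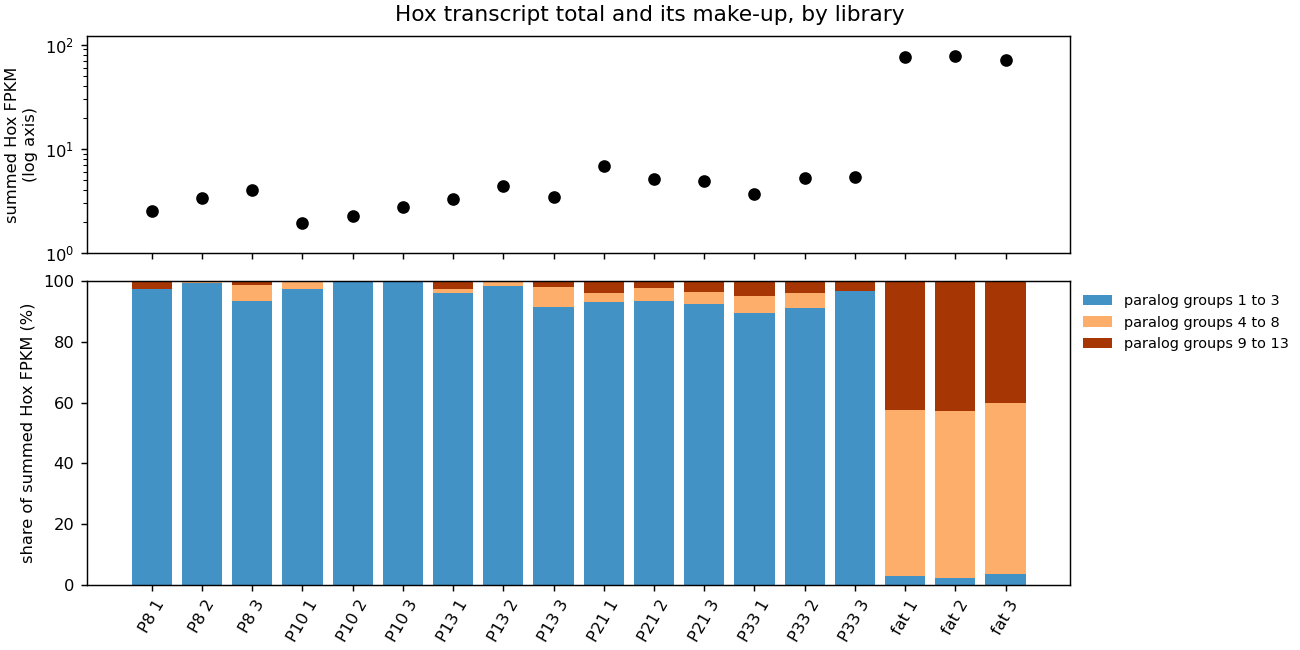
Hox total and make-up in each of the 18 libraries: the upper panel gives the summed FPKM of the 39 genes on a log axis, and the lower panel the percent of that sum from paralog groups 1 to 3, 4 to 8 and 9 to 13. Lipochondrocyte libraries sum to 1.96 to 6.8 FPKM and are mostly groups 1 to 3, and the 3 adipocyte libraries (fat) sum to 71.58 to 77.21 FPKM and are mostly groups 4 to 13.

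Of the 39 genes, 7 were listed at 0 in all 18 libraries (Hoxb1, Hoxb13, Hoxc12, Hoxc13, Hoxd11, Hoxd12 and Hoxd13), and the other 32 were above 0 in at least 1 adipocyte library. In lipochondrocytes 13 genes were above 0 in at least 1 of 15 libraries, 26 were listed at 0 throughout, and 3, Hoxa2 and Hoxb2 among them, were above 0 in all 15. Every one of the 15 lipochondrocyte libraries lay below all 3 adipocyte libraries for 26 of the 39 genes, while 13.4% of all table rows did so, and above them for 1 gene, Hoxa2, with 3.85% of all rows. Taking P33 lipochondrocytes alone, 27 of the 39 lay below all adipocyte libraries (16.7% of all rows) and 1 above (10.1% of all rows). The genes that lay below in all libraries were 3 of 8 in paralog groups 1 to 3, 14 of 15 in groups 4 to 8, 7 of 7 in groups 9 and 10 and 2 of 9 in groups 11 to 13, while 6 of those 9 were at 0 in all libraries.

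**Figure D2:**
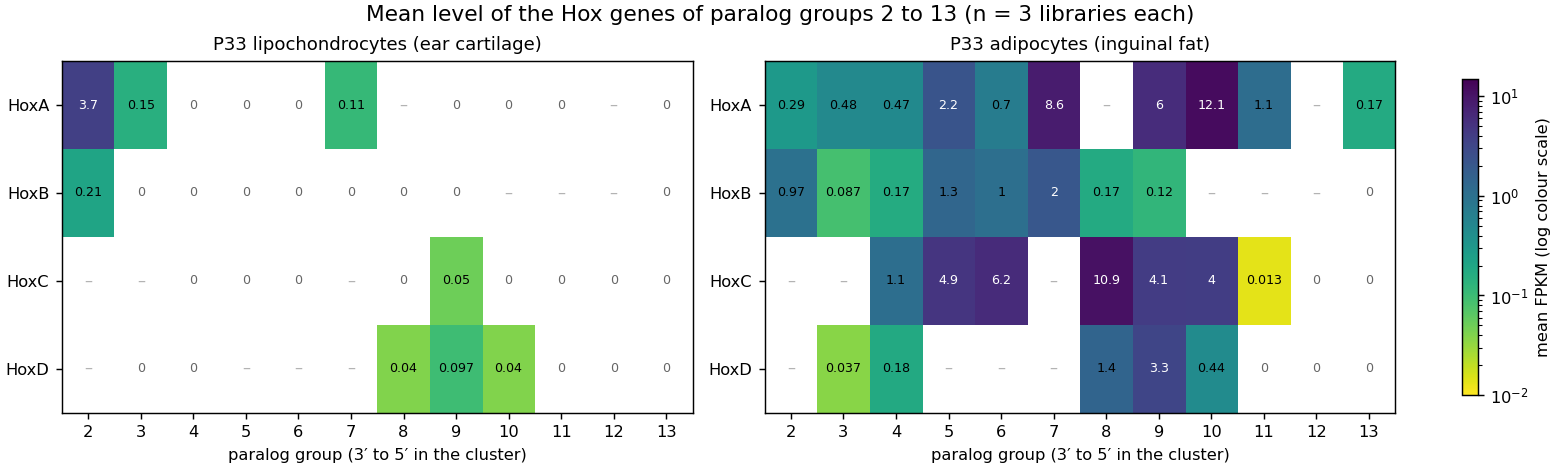
Mean FPKM (log colour scale, n = 3 libraries each) of the Hox genes of paralog groups 2 to 13 in P33 lipochondrocytes on the left and adipocytes on the right, with clusters as rows and paralog groups as columns. A 0 is a gene listed at 0 in all 3 libraries and a dash a gene that does not exist. In lipochondrocytes the highest cell is Hoxa2, and in adipocytes Hoxa10, Hoxc8 and Hoxa7 are highest.

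Hoxa2, the gene that gives second-arch crest its identity, was higher in lipochondrocytes than in adipocytes at every stage. It stood at 1.93, 2.91 and 3.13 FPKM at P8, at 1.53, 1.84 and 2.33 FPKM at P10, at 2.72, 4.12 and 2.66 FPKM at P13, at 5.08, 4.3 and 4.16 FPKM at P21 and at 2.75, 3.95 and 4.54 FPKM at P33, against 0.33, 0.39 and 0.16 FPKM in adipocytes. All 15 lipochondrocyte libraries lay above all 3 adipocyte libraries. The difference on the log2(FPKM + 1) scale, which understates changes of low genes, was 1.49 for P8 (limma adjusted p = 2.41e-06), 1.16 for P10 (adjusted p = 2.95e-05), 1.67 for P13 (adjusted p = 6.74e-07), 2.09 for P21 (adjusted p = 6.02e-08) and 1.86 for P33 (SE 0.18, adjusted p = 2.31e-07), each set against the same 3 adipocyte libraries. Leaving out 1 library at a time gave 1.74 to 2.02 for P33. Of the summed Hox level, Hoxa2 gave 73.9% to 92.6% (median 81.4%) in lipochondrocyte libraries and 0.224% to 0.505% in adipocyte libraries. No other Hox gene reached 1 FPKM in any lipochondrocyte library.

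Across the stages of ear cartilage the mean of Hoxa2 was 2.66 FPKM at P8, 1.90 FPKM at P10, 3.17 FPKM at P13, 4.51 FPKM at P21 and 3.75 FPKM at P33, lowest at P10 and highest at P21. The highest P10 library, at 2.33 FPKM, lay below all P13, P21 and P33 libraries, and libraries of neighbouring stages otherwise overlapped except between P13 and P21, where the lowest P21 value was 4.16 FPKM and the highest P13 value 4.12 FPKM. No step between successive stages passed limma's test: the log2 difference was -0.33 for P10 against P8 (adjusted p = 0.253), 0.51 for P13 against P10 (adjusted p = 0.0539), 0.42 for P21 against P13 (adjusted p = 0.0755) and -0.23 for P33 against P21 (adjusted p = 0.502). At an unadjusted p under 0.05, Hoxa2 alone passed, in the P13 against P10 and the P21 against P13 steps, and 0 Hox genes passed in the other 2 steps. Calls over all genes tested in the 4 steps were 11.0%, 22.6%, 43.1% and 10.0%, beside 0 of the 14 Hox genes tested in each by limma. Of these 14, 13 were tested through the adipocyte libraries alone, and no Hox gene but Hoxa2 exceeded 0.67 FPKM in a lipochondrocyte library. Those 13 could hardly be called between stages, so the count of 0 bears on Hoxa2 alone.

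**Figure D3:**
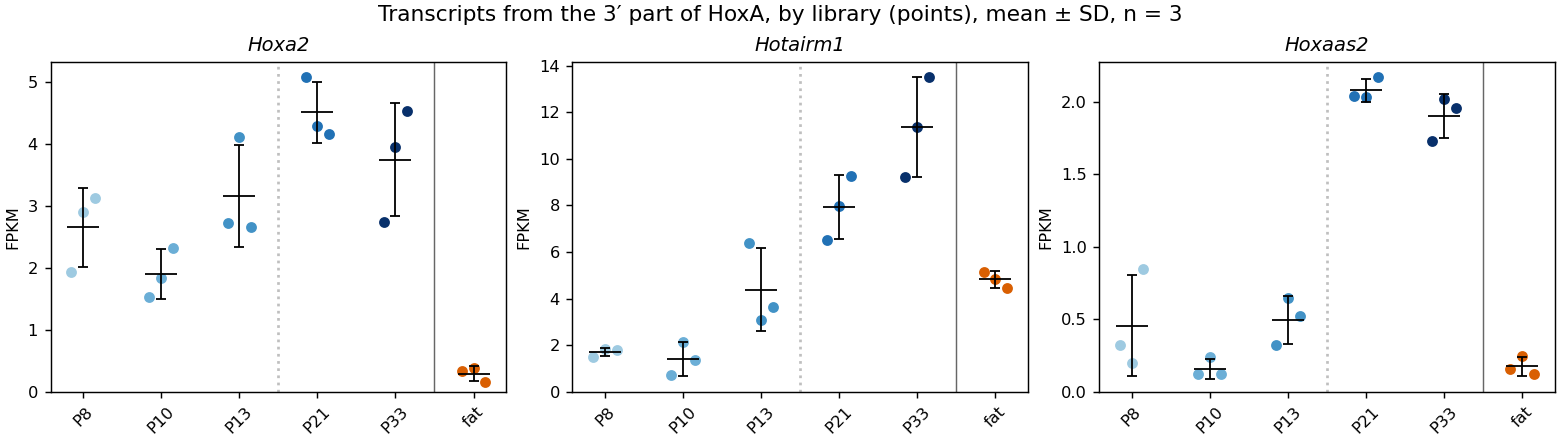
FPKM of Hoxa2, Hotairm1 and Hoxaas2 in each library (points) with mean and SD (n = 3 per group), for lipochondrocytes at P8 to P33 and adipocytes (fat); the dotted line marks the change from sorted to buoyant cells, and axes differ between panels. Hoxa2 sits at 1.53 FPKM or above in every lipochondrocyte library and at 0.39 FPKM or below in adipocytes, and Hoxaas2 is highest at P21 and P33.

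Hoxb2 and Hoxa3 were low. Hoxb2, a hindbrain and second-arch gene of the same paralog group as Hoxa2, was at 0.06, 0.28 and 0.29 FPKM in P33 lipochondrocytes and at 0.59, 0.72 and 1.61 FPKM in adipocytes. All 15 lipochondrocyte libraries, at 0.03 to 0.43 FPKM, lay below the lowest of these adipocyte values. Hoxa3, which is needed for third-arch derivatives, was at 0.15, 0.22 and 0.07 FPKM in P33 lipochondrocytes and at 0.68, 0.41 and 0.36 FPKM in adipocytes, again without overlap. Neither reached the minimum for testing, 1 FPKM in at least 3 libraries. Hoxb2 overlaps exons of the antisense gene Hoxb3os, and Hoxa3 those of Hoxaas2 and other genes on the other strand. Without strand, reads from the shared stretches cannot be told apart.

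In adipocytes 16 Hox genes averaged 1 FPKM or more, none of them from paralog groups 1 to 3. Hoxa10, an Abd-B-type gene of the lumbar region and the hindlimb, was listed at 0 in all P33 lipochondrocyte libraries and stood at 12.04, 14.63 and 9.48 FPKM in adipocytes. Hoxc8, a thoracic patterning gene, was listed at 0 there and stood at 10.97, 11.12 and 10.75 FPKM in adipocytes. The adipocyte libraries of these genes overlapped each other, so that their order was not resolved. Hoxa7 was at 0.14, 0.2 and 0 FPKM in P33 lipochondrocytes and at 9.06, 8.97 and 7.67 FPKM in adipocytes, below Hoxc8 in every adipocyte library. Its log2 difference was -3.10 (SE 0.08, limma adjusted p = 4.28e-14), while for genes listed at 0 in lipochondrocytes no fold is given.

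The next genes in order of adipocyte mean were listed at 0 in P33 lipochondrocytes unless stated. Hoxc6, active in the anterior thorax, stood at 7.08, 6.11 and 5.37 FPKM in adipocytes. Hoxa9 stood at 5.92, 5.54 and 6.52 FPKM and Hoxc5 at 4.01, 5.01 and 5.74 FPKM in adipocytes, and each of these 3 overlapped its neighbour in the order. Hoxc9 was at 0.09, 0.06 and 0 FPKM in P33 lipochondrocytes and at 5.03, 3.75 and 3.55 FPKM in adipocytes (log2 difference -2.27, SE 0.09, limma adjusted p = 4.45e-12). Hoxc10, a hindlimb-level gene, stood at 4.53, 3.96 and 3.6 FPKM in adipocytes. Hoxc5 and Hoxc10 share annotated exon sequence on the same strand, so their reads may have been split between them. Hoxd9, which acts with its group 9 paralogs in limb and lumbar patterning, was at 0.09, 0.03 and 0.17 FPKM in P33 lipochondrocytes and at 2.95, 3.42 and 3.44 FPKM in adipocytes (log2 difference -1.96, SE 0.08, limma adjusted p = 1.40e-11). These levels did not overlap those of Hoxc10 above it or of Hoxa5 below it.

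Lower in the order, Hoxa5 stood at 1.79, 2.61 and 2.33 FPKM in adipocytes, Hoxb7 at 1.92, 1.67 and 2.52 FPKM and Hoxb5 at 1.36, 1.2 and 1.44 FPKM, all 3 listed at 0 in P33 lipochondrocytes. Hoxd8 was at 0.07, 0.05 and 0 FPKM in P33 lipochondrocytes and at 1.17, 1.59 and 1.54 FPKM in adipocytes (log2 difference -1.22, SE 0.11, limma adjusted p = 6.39e-08). Hoxb5 was just inside the minimum for testing. Just outside it were Hoxa11 at 1.24, 0.72 and 1.36 FPKM, Hoxc4 at 1.33, 1.18 and 0.73 FPKM and Hoxb6 at 1, 1.18 and 0.89 FPKM in adipocytes, each listed at 0 in all P33 lipochondrocyte libraries. Hoxa11 overlaps the antisense gene Hoxa11os, which stood at 1.07, 1.38 and 0.75 FPKM in adipocytes, and without strand the pair cannot be told apart.

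**Figure D4:**
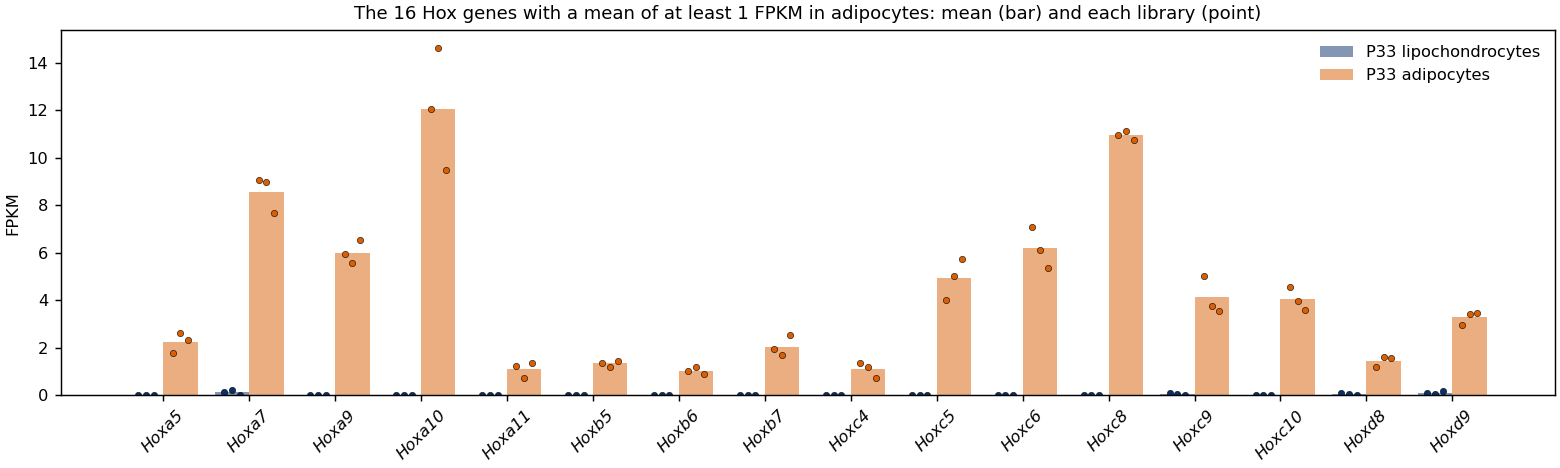
FPKM of the 16 Hox genes that averaged 1 FPKM or more in adipocytes, shown in P33 lipochondrocytes (left bar of each pair) and P33 adipocytes (right bar), as mean (bar) and library (point), in cluster order. Every adipocyte library of each gene stands above every P33 lipochondrocyte library, and lipochondrocyte values reach at most 0.2 FPKM.

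The remaining members were below a mean of 1 FPKM in both tissues. In adipocytes Hoxa6 was at 0.99, 0.6 and 0.5 FPKM, Hoxa4 at 0.47, 0.58 and 0.36 FPKM and Hoxd10 at 0.28, 0.69 and 0.36 FPKM, and all 3 exceeded every lipochondrocyte library. Hoxa13, the most 5′ gene of HoxA, was at 0.07, 0.16 and 0.29 FPKM in adipocytes and listed at 0 in lipochondrocytes. Hoxb3, Hoxb4, Hoxb8, Hoxb9 and Hoxd4 stood at no more than 0.26 FPKM in adipocytes. Hoxc11, Hoxd1 and Hoxd3 were above 0 in 1 adipocyte library each. Over the 38 genes other than Hoxa2, 76 of 570 lipochondrocyte values were above 0, and the smallest Hox value above 0 in the table was 0.02 FPKM, so a listing at 0 does not show absence.

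In the test of P33 lipochondrocytes against adipocytes 14 of the 39 genes were tested, 13 of them through the adipocyte libraries alone and Hoxa2 through lipochondrocytes alone, so each had to differ and their count supports nothing further. Hoxa2 was called higher and 13 genes lower, where 24.0% of 13815 genes were called higher and 44.5% lower. At each earlier stage 1 Hox gene was likewise called higher and 13 lower, where the shares of all genes were 19.3% and 52.2% at P8, 16.8% and 58.9% at P10, 17.8% and 54.0% at P13, and 24.5% and 43.1% at P21. Median-of-ratios scaling moved the shares over all genes to 30.7% higher and 36.0% lower at P8, 32.0% and 36.9% at P10, 30.0% and 34.7% at P13, 29.7% and 34.5% at P21, and 30.3% and 34.9% at P33. The Hox calls at P33 were again 1 higher and 13 lower. With no filter, 32 of the 39 genes were tested at P33, with 1 called higher and 27 lower, beside 15.8% and 27.5% of 28146 genes. The median log2 difference of all genes was -0.28 as deposited and -0.02 after that scaling.

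Transcripts without a protein from the same clusters followed 2 patterns. Hotairm1, an antisense RNA beside Hoxa2 (chr6:52156902-52162119, plus strand) that is known from human myeloid cells, was at 1.50, 1.82 and 1.80 FPKM at P8, at 0.71, 2.14 and 1.35 FPKM at P10, at 6.40, 3.10 and 3.65 FPKM at P13, at 6.53, 7.98 and 9.26 FPKM at P21 and at 9.22, 11.35 and 13.51 FPKM at P33, against 5.16, 4.86 and 4.44 FPKM in adipocytes. All P21 and P33 libraries lay above and all P8 and P10 libraries below the adipocyte ones. Since the counting is not known to have used strand, its reads cannot be told apart from any transcribed across it on the other strand. It was called lower than in adipocytes at P8 (log2 difference -1.10, limma adjusted p = 5.09e-04) and P10 (-1.32, adjusted p = 9.04e-05) and higher at P21 (0.61, adjusted p = 0.0298) and P33 (1.07, SE 0.23, adjusted p = 7.13e-04). The P8 call was lost after median-of-ratios scaling (-0.57, adjusted p = 0.0578, with 1.35e-04 to 0.0578 over the alternatives). The P21 call was lost with a pseudocount of 0.1 and without any 1 of 4 libraries (P21 library 2 or 3, adipocyte library 2 or 3), and its adjusted p ran from 0.00809 to 0.106 over the alternatives. Between stages it rose at P13 against P10 (log2 difference 1.16, limma adjusted p = 0.00253, but 0.0572 with only those 2 groups modelled, the highest of 0.00152 to 0.0572 over the alternatives) and at P21 against P13 (0.77, adjusted p = 0.0149). The second of these, with adjusted p of 0.00273 to 0.279 over the alternatives, was lost after median-of-ratios scaling (0.38, adjusted p = 0.279), with only 2 groups modelled (adjusted p = 0.0654), and without P13 library 2 (adjusted p = 0.0710), P13 library 3 (adjusted p = 0.0553) or P21 library 3 (adjusted p = 0.0596).

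Hoxaas2, antisense and lying between Hoxa2 and Hoxa3 with an end inside Hoxa3 (chr6:52165674-52169564, plus strand), was at 0.32, 0.20 and 0.85 FPKM at P8, at 0.12, 0.24 and 0.12 FPKM at P10, at 0.32, 0.65 and 0.52 FPKM at P13, at 2.04, 2.03 and 2.17 FPKM at P21 and at 1.73, 2.02 and 1.96 FPKM at P33, against 0.16, 0.25 and 0.12 FPKM in adipocytes. It shares exon sequence with Hoxa3 on the other strand, and without strand reads from that stretch cannot be told apart. Every P21 and P33 library lay above every other library. It was higher in P33 lipochondrocytes than in adipocytes (log2 difference 1.30, SE 0.13, limma adjusted p = 4.39e-07) and higher at P21 than at P13 (1.05, adjusted p = 2.46e-05). Isolation changed between P13 and P21 as well, from sorting to flotation. Neither this step nor that of Hotairm1 can be told apart from that change. A muscle marker sum over 8 genes was 27.5 to 570 FPKM in the P21 and P33 lipochondrocytes and 5.47 to 38.03 FPKM in the sorted ones, and macrophage markers summed to 16.2 to 55.5 FPKM at P21 and P33 and 2.28 to 5.55 FPKM in the sorted cells. Fibroblast and perichondrium markers summed to 6743 to 12762 FPKM at P21 and 2468 to 3252 FPKM at P13, and Schwann cell markers, over 6 genes, to 299 to 398 FPKM at P21 and 171 to 180 FPKM at P13. Members of these last 2 sums moved in both directions. Col1a1 had a mean of 3171 FPKM at P21 and 512 FPKM at P13, and Dcn 1819 and 220 FPKM. Postn was lower at P21, at 38.5 and 101.7 FPKM, and so was Dpt, at 4.42 and 11.99 FPKM. The means of Col3a1 and Col14a1 were lower as well. S100b, at 347 and 174 FPKM, made up most of the Schwann cell sum, while Ngfr was lower at P21, at 0.08 and 0.97 FPKM. The part of any of these cell types in the step was not tested. Hoxd3os1, antisense in HoxD, ran the other way, at 0.32, 0.67 and 0.91 FPKM in P33 lipochondrocytes and 7.46, 6.24 and 9.69 FPKM in adipocytes (log2 difference -2.43, SE 0.15, limma adjusted p = 1.14e-09). Of 17 such genes found in the table, 3 were tested in this comparison, with 2 higher and 1 lower, where 24.0% of all genes were called higher and 44.5% lower, and the 7 microRNA genes annotated in the clusters were listed at 0 throughout. Hoxd3os1 was tested through the adipocyte libraries alone and Hoxaas2 through P21 and P33 lipochondrocytes alone, so each had to differ in its direction. Their count supports nothing further.

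Other genes linked to the Hox clusters or to body position, the noncoding ones above among them, were read from 6 lists. Pbx, Meis and Pknox proteins bind DNA beside Hox proteins, and of 10 such cofactors 9 were tested, with 4 higher and 2 lower in P33 lipochondrocytes than in adipocytes (median log2 difference 0.279, against -0.28 over all genes, and 5 higher and 2 lower after median-of-ratios scaling). Of all genes tested, 24.0% were called higher and 44.5% lower as deposited, and 30.3% and 34.9% after that scaling. Meis1 was at 10.74, 11.83 and 9.17 FPKM in P33 lipochondrocytes and 2.62, 3.37 and 3.02 FPKM in adipocytes (log2 difference 1.53, SE 0.11, limma adjusted p = 4.78e-09). The groups did not overlap. Pbx3 (log2 difference 0.88) and Pknox2 (0.46) were higher as well, and Meis3 (-1.15) and Pknox1 (-1.08) lower. Meis1 fell by 0.35 on the log2 scale at P13 against P10 (limma adjusted p = 0.0300).

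Polycomb proteins keep Hox genes silent and Trithorax proteins keep them active. Of 20 listed chromatin regulators 19 were tested, with 4 higher and 9 lower in P33 lipochondrocytes (median log2 difference -0.240, and 4 higher and 7 lower after median-of-ratios scaling). These counts were near the shares over all genes, 24.0% higher and 44.5% lower, so they are no result about the list. The Polycomb genes Cbx8 (-1.11), Jarid2 (-1.11) and Bmi1 (-1.07) were lower. Ctcf, which marks boundaries inside the clusters, was higher (0.78, limma adjusted p = 0.0107), as was the Trithorax gene Kmt2a (0.40, adjusted p = 0.0175, but 0.0598 without P33 library 1 and 0.0811 without adipocyte library 1, with 0.00429 to 0.0811 over the alternatives). The Trithorax genes Ash1l (0.47, adjusted p = 0.0488) and Wdr5 (0.27, adjusted p = 0.0422) were called higher as well, but Ash1l kept the call in only 5 of 14 alternatives (adjusted p of 3.75e-04 to 0.201) and Wdr5 in 7 of 14 (2.05e-04 to 0.147).

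Retinoic acid switches on Hox genes from the 3′ end of the clusters, and of 18 genes of that pathway 16 were tested, with 7 higher and 5 lower in P33 lipochondrocytes (median log2 difference 0.180, and 8 higher and 4 lower after median-of-ratios scaling), where 24.0% of all genes were called higher and 44.5% lower. Cyp26a1, which degrades retinoic acid, was at 44.35, 48.28 and 198.85 FPKM in P33 lipochondrocytes and 0.05, 0.19 and 0.21 FPKM in adipocytes (log2 difference 6.06, SE 0.45, limma adjusted p = 1.09e-08). The third P33 library was the highest by far, and all 3 lay above the adipocyte libraries. Cyp26a1 was also higher at P21 than at P13, with 23.16, 50.42 and 72.59 FPKM at P21 and 1.13, 1.61 and 1.78 FPKM at P13 (4.18, adjusted p = 4.86e-06). Age and isolation both changed in that step and cannot be told apart. Crabp1, a retinoic acid binding protein, was at 11.53, 17.20 and 64.91 FPKM in P33 lipochondrocytes and listed at 0 in adipocytes. The receptor Rarg (2.78) and Cyp26b1 (2.31) were higher, and the receptors Rxrg (-3.95) and Rarb (-1.19), the retinaldehyde reductase Dhrs3 (-3.57) and Aldh1a2 (-1.34), which makes retinoic acid, were lower.

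Other transcription factors of position were read in the same way. Of 32 craniofacial and ear genes 15 were tested, with 11 higher and 2 lower in P33 lipochondrocytes (median log2 difference 1.166, against -0.28 over all genes), where 24.0% of all genes were called higher and 44.5% lower. The counts after median-of-ratios scaling were again 11 higher and 2 lower. Most of the tested genes, Dlx5, Bmp5 and Prrx2 among them, passed the minimum for testing through lipochondrocyte libraries alone. Lhx6 passed it through adipocyte libraries alone. The filter thus favoured their directions, so the counts and the median support nothing further about the list. Msx1, a crest and tooth factor, was at 80.50, 91.83 and 152.16 FPKM in P33 lipochondrocytes and 1.60, 1.59 and 0.77 FPKM in adipocytes (log2 difference 5.52, SE 0.27, limma adjusted p = 5.91e-11). Dlx5, a distal arch gene, was at 32.22, 39.60 and 33.37 FPKM in P33 lipochondrocytes and 0.07, 0.18 and 0.07 FPKM in adipocytes (5.02, SE 0.14, adjusted p = 1.04e-13). The groups did not overlap for either gene. Bmp5 (4.05), the signal mutated in short-ear mice, and Prrx2 (3.67) were higher, and Lhx6 (-1.06) lower.

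Of the 20 genes of the trunk and hindlimb list only 6 were tested, with 5 higher and 1 lower in P33 lipochondrocytes (median log2 difference 0.971, against -0.28 over all genes), where 24.0% of all genes were called higher and 44.5% lower. The counts after median-of-ratios scaling were again 5 higher and 1 lower, and the other 14 genes were too low to be tested. Tbx15, Emx2 and Irx5 passed the minimum for testing through lipochondrocyte libraries alone, so the filter favoured their direction. The counts and the median therefore support nothing further about the list. Tbx15, known to mark dorsal skin, limb and some fat depots, was at 4.77, 4.33 and 3.58 FPKM in P33 lipochondrocytes and 0, 0 and 0.02 FPKM in adipocytes (log2 difference 2.37, SE 0.16, limma adjusted p = 4.53e-09). Emx2, known from the shoulder girdle and the brain, was also higher (1.77, adjusted p = 9.65e-06). Irx5 was at 1.17, 1.16 and 2.16 FPKM in P33 lipochondrocytes and listed at 0 in adipocytes. Irx3 was higher (0.65, adjusted p = 0.0251, but 0.104 with only those 2 groups modelled, 0.144 without P33 library 3, 0.0727 without adipocyte library 1 and 0.0648 without adipocyte library 3, with 0.00160 to 0.144 over the alternatives), and Nr2f2 lower (-0.92). Pitx1, which sets hindlimb identity, was too low to be tested, listed at 0 in all P33 lipochondrocyte libraries and at 0.67, 0.54 and 0.35 FPKM in adipocytes.

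**Figure D5:**
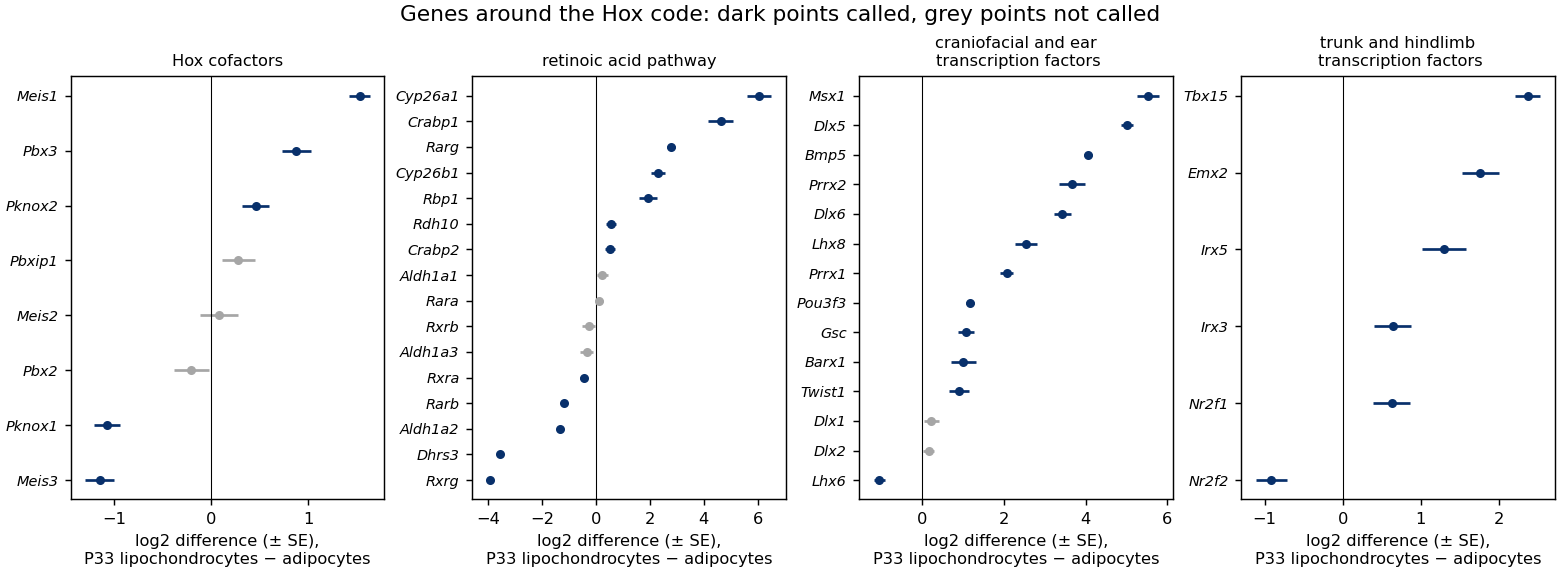
Log2 difference with SE, P33 lipochondrocytes minus adipocytes (n = 3 each), for tested genes of 4 lists: Hox cofactors, retinoic acid pathway, craniofacial and ear factors, and trunk and hindlimb factors. Dark points passed limma's adjusted p threshold of 0.05 and grey points did not; Cyp26a1 at 6.06 and Msx1 at 5.52 are farthest to the right, and Rxrg at -3.95 is farthest to the left.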

How the data were processed

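RNA sequencing libraries of 15 lipochondrocyte and 3 adipocyte samples were aligned with STAR 2.4.2a to mm10, per the submitters' processing notes. The deposited table gives FPKM per gene, calculated by the authors, with 2 decimals. The quantifier, annotation and use of strand were not given in the sources used here. Per the file headers, another deposited table holds a count of reads and the percent aligned for each library. Without gene counts, intervals for counting error could not be made.

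Samples were grouped by the labels. No 2 libraries held identical values (0 found), and 0 per-sample columns were left unused. FPKM were changed to log2(FPKM + 1), a gene was kept where 3 or more libraries reached 1 FPKM (13815 of 46983), and 6 group means were fitted with limma 3.58.1 (R 4.3.3) to all 18 libraries with a mean-variance trend. The 9 comparisons were 2-sided, with Benjamini-Hochberg adjustment over genes, and adjusted p under 0.05 is called. The fit was tested on simulated data. Coordinates are from GENCODE M21 (GRCm38), in which 39 of 39 Hox identifiers and 98.9% of all were found, version ignored. Plots used Python 3.11.15 and matplotlib 3.10.9.

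Some genes counted in the lists are not reported here by name. Members that averaged 1 FPKM or more in any group are given by library. In each of the 6 other lists, the genes named were up to 4 in each direction, called, with the largest differences and an average of 1 FPKM or more in either group. Members and lists were chosen with earlier results of these data known. Alternatives were pseudocounts of 0.1 and 0.5, no filter, a mean of at least 1 FPKM, median-of-ratios scaling, no trend, a replicate block, only the compared groups, and leaving out each library.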

Additional observations from a re-analysis of the deposited data

How the results depend on the processing

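Hoxa2 stayed higher in lipochondrocytes than in adipocytes, past the threshold, in all 5 stage comparisons under every alternative run. The number of Hox genes called against adipocytes follows the filter: with no filter it was 28 at each of P8, P10, P13, P21 and P33 (1 higher and 27 lower of 32 tested, where 15.8% and 27.5% of 28146 genes were called at P33), and with a mean of at least 1 FPKM over all libraries it was 5 at each (1 higher and 4 lower of 5 tested). The steps between stages, with 0 called, gave 1 called gene for P21 against P13 with no filter, a gene otherwise too low to be tested, and 1 for P13 against P10 with the mean filter, Hoxa2 (adjusted p = 0.0468). Whether the replicate numbers pair the libraries is not known. In no comparison were all 3 same-number correlations above 0.1, which does not exclude pairing (0.048, 0.194 and 0.182 for P13 against P10). The replicate block gave 1 call for P13 against P10 (Hoxa2, 0.51, adjusted p = 0.0451). Leaving out 1 library gave 0 to 1 for P13 against P10 (1 without P10 library 3, adjusted p = 0.0441) and 0 to 1 for P21 against P13 (1 without P13 library 2, adjusted p = 0.0259). Over all alternatives the adjusted p of Hoxa2 ran from 0.0441 to 0.232 for P13 against P10 and from 0.0259 to 0.809 for P21 against P13. Median-of-ratios scaling turned Meis1 (-0.37, adjusted p = 0.00750) and Wdr5 (-0.29, adjusted p = 0.0400) lower at P21 against P13. The causes were not tested. Over all single-gene values, 5439 kept their call, 68 gained it, 135 lost it and 2 reversed. FPKM hold no counts, and a value at 0 may be below what this depth detects.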
